A study of Mus musculus with 10 samples.

Results

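Fc gamma receptors are the membrane proteins by which monocytes and other leukocytes bind the constant part of IgG. The 4 mouse receptor genes Fcgr1, Fcgr2b, Fcgr3 and Fcgr4 and the gene of their common signalling chain, Fcer1g, were followed by symbol in Ly6Chigh monocytes of the mouse spleen, as 5 of the 24421 gene symbols that all 10 libraries share. The libraries were made from male mice of 8 to 10 weeks, 5 days after permanent ligation of a coronary artery (myocardial infarction, MI) or after a sham thoracotomy. Cells were sorted as CD11b+ Ly6G- F4/80+ Ly6Chigh CD115+ after magnetic removal of T and B cells, and picogram amounts of RNA were sequenced. The groups were C57BL/6 wild type (WT) mice after sham surgery (WT sham, replicates 1, 2 and 3), WT mice after MI (WT MI, replicates 2, 3 and 4) and Foxp3DTR mice after MI (Foxp3DTR MI, replicates 1 to 4).

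Foxp3DTR mice express the human diphtheria toxin receptor from the Foxp3 promoter, so that diphtheria toxin removes their Foxp3+ regulatory T cells (Tregs). The toxin was given at 500 ng on each of the last 2 days before surgery and at 250 ng on day 2 after it. The study describes WT mice treated with the toxin next to the Foxp3DTR mice, but the labels do not say which WT libraries came from treated mice. Mouse line and Treg loss cannot be told apart in the comparison of Foxp3DTR MI with WT MI, since all Foxp3DTR mice were depleted. Where a WT library came from an untreated mouse, the toxin itself is a further difference that cannot be told apart. The comparison of Foxp3DTR MI with WT sham adds the surgery to these. Each library was taken as 1 animal, and since no label says so, the p-values measure the spread between these libraries, which may in part be technical.

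Activating Fc gamma receptors pair with the Fcer1g chain, whose ITAM motif recruits the kinase Syk once immune complexes cluster the receptors. Fcgr1 is the high-affinity receptor for monomeric IgG, Fcgr3 is a low-affinity receptor for complexes, and Fcgr4 binds complexes of IgG2a and IgG2b. Fcgr2b is the only inhibitory member and carries an ITIM motif that recruits the lipid phosphatase Inpp5d (SHIP). On monocytes the balance between activating receptors and Fcgr2b sets the threshold for phagocytosis and cytokine release. Fcgr1 is a known target of interferon gamma (IFN-γ), and Fcgr4 is known on Ly6Clow monocytes and neutrophils as well.

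Depth was 3.13 M to 8.395 M reads (M, 1e6), with WT sham replicate 2 the shallowest library. The defining genes of the sorted cells were present, since Ly6c2 lay between 1498 and 4757 TPM, Ccr2 between 906 and 1749 TPM and Csf1r between 519 and 933 TPM. By group, Ly6c2 was at 3667 to 4757 TPM in Foxp3DTR MI and at 1498 to 2772 TPM in the WT libraries. TPM (transcripts per 1e6 transcripts) is corrected for gene length, so that levels of different genes can be set side by side. Cd3e (T cells) lay between 0.0 and 23.4 TPM and S100a8, a neutrophil gene, between 20.0 and 1082 TPM. S100a8 was at 525 to 1082 TPM in Foxp3DTR MI and at 20.0 to 387 TPM in the WT libraries. Ly6g, the gene of the marker used to exclude neutrophils, was not analysed here. Before testing, TPM was scaled by 1 factor per library, which brings the median gene to a like level. Without that scaling the median of all 12938 tested genes moved by 0.22 (log2) between Foxp3DTR MI and WT MI, by -0.17 between WT MI and WT sham and by 0.05 between Foxp3DTR MI and WT sham, so that the fold changes below are relative to the median gene.

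The 5 genes fell into 3 levels, which the plot of the genes by library shows. Fcer1g was the most abundant in every library, at 2504 to 4232 TPM. Fcgr3 lay between 731 and 946 TPM and Fcgr2b between 509 and 958 TPM. These ranges overlapped, with Fcgr3 above Fcgr2b in 8 of 10 libraries. Fcgr1, at 78.6 to 170 TPM, and Fcgr4, at 6.48 to 240.1 TPM, were the least abundant, and their order was not the same in all groups. Fcgr1 was above Fcgr4 in all 6 WT libraries and in Foxp3DTR MI replicate 2, and below it in the other 3 Foxp3DTR MI libraries.

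**Figure D1:**
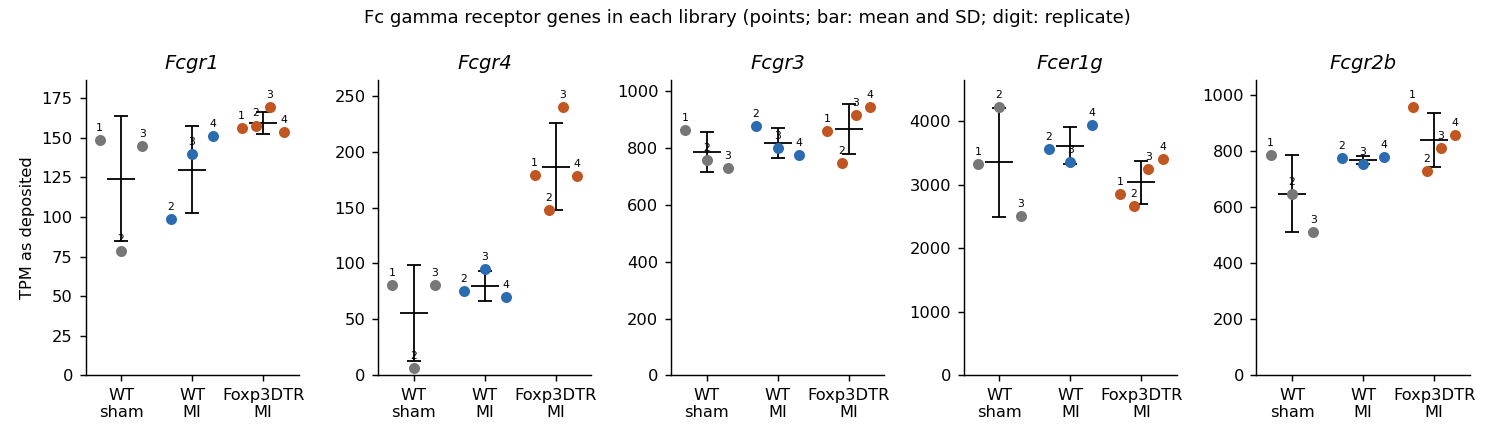
TPM as deposited (y axis, from 0, 1 scale per gene) of the 5 genes in the 3 groups (x axis), with 1 point per library, its replicate number and the mean with its SD. The 4 Foxp3DTR MI points of Fcgr4 (147.7 to 240.1 TPM) lie above all WT points (6.48 to 95.5 TPM), while the 3 groups overlap for Fcgr3, Fcer1g and Fcgr2b.

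No member passed an adjusted p under 0.05 in limma, Benjamini-Hochberg adjusted over all genes tested, in any of the 3 comparisons. Between Foxp3DTR MI and WT MI 0 of 5 members were called, against 145 of 12938 genes (1.12%), and 0 of 5 had an unadjusted p under 0.05, against 17.7% of genes. Between WT MI and WT sham 0 of 5 were called, against 0% of genes, and 1 of 5 (Fcgr2b) had an unadjusted p under 0.05, against 4.64%. In Foxp3DTR MI against WT sham 0 of 5 were called, against 0.541%, and 1 of 5 (Fcgr4) had an unadjusted p under 0.05, against 18.6%. The last comparison shares libraries with both others. The plot of the fold changes gives all estimates with their intervals.

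**Figure D2:**
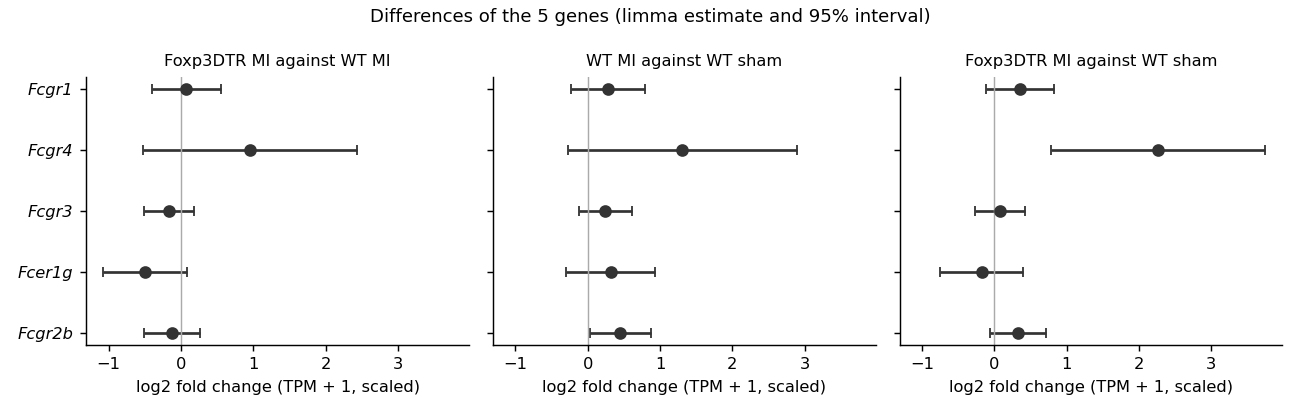
log2 fold change (x axis) of the 5 genes (y axis) in 3 comparisons, as points with 95% intervals from limma on scaled log2(TPM + 1). Of the 15 intervals, 2 leave out 0, those of Fcgr2b in WT MI against WT sham (0.04 to 0.87) and of Fcgr4 in Foxp3DTR MI against WT sham (0.78 to 3.74).

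Among the ligand-binding activating receptors, Fcgr4 had the largest estimated differences. The gene lies on chromosome 1 (mm10, 171018926 to 171029761, plus strand). In WT MI it was measured at 75.1, 95.5 and 70.2 TPM (80.3 ± 13.4, SD, n = 3). In Foxp3DTR MI it was measured at 179, 147.7, 240.1 and 178 TPM (186 ± 38.7, SD, n = 4). The lowest Foxp3DTR MI library was thus above the highest WT MI library, on deposited and on scaled values, a separation in this direction that 9.97% of tested genes showed. The log2 fold change was 0.95 (SE 0.67, 95% interval -0.53 to 2.43), a 1.94-fold difference on the scaled values with 1 TPM added, and did not pass the test (adjusted p = 0.492, limma). An exact two-sided permutation test of this 1 gene gave p = 0.0571, the smallest that 4 against 3 libraries allow.

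The error of this estimate depended on 1 sham library, because all 3 groups shared 1 estimate of the spread. In WT sham Fcgr4 was measured at 81.0, 6.48 and 80.8 TPM (56.1 ± 43.0, SD, n = 3). Replicates 1 and 3 were close to the WT MI libraries, while replicate 2 was 12.5-fold below their mean. About 9.0 reads of 50 bases lie behind that value of Fcgr4, worked out from coverage and a transcript of 1256 bases, against 163.7 to 719 reads in the other 9 libraries. Without WT sham replicate 2 the log2 fold change of Fcgr4 between Foxp3DTR MI and WT MI was 0.96 (SE 0.17, adjusted p = 0.0274, limma), and in a fit of these 2 groups alone it was 0.95 (SE 0.18, adjusted p = 0.0265). Over all 22 alternative settings it ranged from 0.78 to 1.20 (log2), with adjusted p from 0.0265 to 0.649, as the plot of Fcgr4 by setting shows. The same library weighed on both comparisons with sham. Between WT MI and WT sham the log2 fold change of Fcgr4 was 1.31 (SE 0.71, adjusted p = 0.96), and 0.19 (adjusted p = 0.96) without replicate 2. From WT sham to Foxp3DTR MI it was 2.26 (SE 0.67, adjusted p = 0.136, limma), with no overlap of scaled values, as for 9.8% of genes in this direction. It was 1.14 (adjusted p = 0.115) without WT sham replicate 2 and 2.81 (adjusted p = 0.0499) without WT sham replicate 3.

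**Figure D3:**
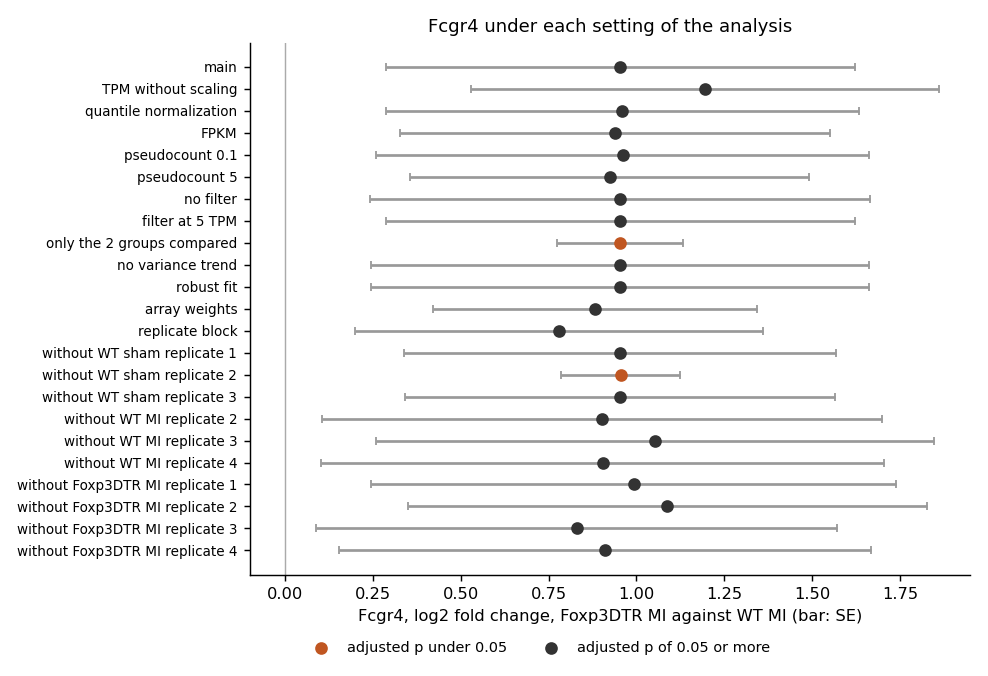
log2 fold change of Fcgr4 between Foxp3DTR MI and WT MI (x axis, points with SE) in the main analysis and under 22 alternative settings (y axis), coloured by whether the adjusted p was under 0.05. All 23 estimates are above 0, and 2 of them pass, the fit of the 2 groups alone and the fit without WT sham replicate 2.

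The promoter of Fcgr4 is shown because it holds a match to the element of interferon regulatory factors, with none in the promoter windows of the other members. The 250 bases before its start, read from RefSeq on GRCm38.p6 at chr1:171018676-171018925, plus strand, have the match (GAAA, any 2 bases, GAAA) in capitals, 73 bases before the start.
Fcgr4: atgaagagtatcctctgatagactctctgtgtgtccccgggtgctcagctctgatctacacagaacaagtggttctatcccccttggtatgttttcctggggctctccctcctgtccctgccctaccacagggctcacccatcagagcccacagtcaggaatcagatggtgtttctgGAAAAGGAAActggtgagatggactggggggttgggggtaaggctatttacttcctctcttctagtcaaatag
Both strands were searched, and 2.98% of 32851 promoter windows of this length hold such a match. A match is a description of the letters and no evidence of binding.

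Fcgr1, the high-affinity receptor, lies on chromosome 3 (mm10, 96282909 to 96293969, minus strand), apart from the other members. It was measured at 149, 78.6 and 145 TPM in WT sham (124 ± 39.4, SD, n = 3), at 98.8, 139.95 and 151 TPM in WT MI (129.9 ± 27.5, SD, n = 3) and at 156, 158, 169.7 and 154 TPM in Foxp3DTR MI (159 ± 7.07, SD, n = 4). As deposited, all Foxp3DTR MI libraries (from 154 TPM) were above all WT libraries (up to 151 TPM). On that scale the median gene was 0.22 (log2) higher in Foxp3DTR MI than in WT MI, and how many genes separate so was not worked out. On the scaled values they overlapped with both WT groups, with WT MI replicate 4 at 176 scaled TPM and the Foxp3DTR MI libraries at 138 to 162. The log2 fold change between Foxp3DTR MI and WT MI was 0.07 (SE 0.21, 95% interval -0.40 to 0.55, adjusted p = 0.889, limma), and it was -0.12 without WT MI replicate 2. Between WT MI and WT sham it was 0.28 (adjusted p = 0.963) and between Foxp3DTR MI and WT sham 0.35 (adjusted p = 0.407), which became 0.01 and 0.09 without WT sham replicate 2, the lowest library for Fcgr1 as for Fcgr4.

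The promoter of Fcgr1 is shown for its match to the IFN-γ activated site (GAS), TTCNNNGAA, in capitals and 109 bases before the start (RefSeq, GRCm38.p6, chr3:96293970-96294219, minus strand).
Fcgr1: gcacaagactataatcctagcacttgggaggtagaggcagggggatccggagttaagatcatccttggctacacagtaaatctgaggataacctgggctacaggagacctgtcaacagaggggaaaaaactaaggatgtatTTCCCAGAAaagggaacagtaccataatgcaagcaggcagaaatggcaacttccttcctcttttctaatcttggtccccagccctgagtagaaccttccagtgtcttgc
Such a match stands in 7.02% of all promoter windows, and among the members in that of Fcgr1 alone. The motif of PU.1, the lineage factor of myeloid cells, searched as GAGGAA, was found in the windows of Fcgr1, Fcgr4 and Fcgr3 and in 23.25% of all windows. None of the 3 motifs matched in the windows of Fcer1g and Fcgr2b.

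Fcgr3, the low-affinity activating receptor, lies on chromosome 1 (mm10, 171051169 to 171059403, minus strand). It was measured at 864, 759 and 731 TPM in WT sham (785 ± 70.2, SD, n = 3), at 879, 799 and 776 TPM in WT MI (818 ± 54.1, SD, n = 3) and at 860.0, 746, 915 and 946 TPM in Foxp3DTR MI (867 ± 88.1, SD, n = 4). The 3 groups overlapped as deposited. The log2 fold change between Foxp3DTR MI and WT MI was -0.16 (SE 0.16, 95% interval -0.51 to 0.18, adjusted p = 0.617, limma), and without scaling it was 0.08. Between WT MI and WT sham it was 0.24 (SE 0.17, adjusted p = 0.96) with scaled values that did not overlap, as for 3.18% of genes in this direction, and between Foxp3DTR MI and WT sham it was 0.08 (adjusted p = 0.815).

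Fcer1g, the ITAM chain that the activating receptors need at the cell surface, lies on chromosome 1 (mm10, 171229572 to 171234349, minus strand). It was measured at 3325, 4232 and 2504 TPM in WT sham (3354 ± 864, SD, n = 3), at 3562, 3352 and 3936 TPM in WT MI (3617 ± 296, SD, n = 3) and at 2849, 2671, 3248 and 3403 TPM in Foxp3DTR MI (3043 ± 340.2, SD, n = 4). The highest Foxp3DTR MI library was just above the lowest WT MI library, and the sham libraries spanned both groups. The log2 fold change between Foxp3DTR MI and WT MI was -0.50 (SE 0.26, 95% interval -1.07 to 0.08, adjusted p = 0.348, limma), a ratio of 0.709, and it was -0.25 without scaling and -0.23 with quantile normalization. Between WT MI and WT sham it was 0.32 (adjusted p = 0.963) and between Foxp3DTR MI and WT sham -0.18 (adjusted p = 0.747). The latter was 0.04 without WT sham replicate 2.

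Fcgr2b, the inhibitory receptor, lies on chromosome 1 (mm10, 170960559 to 170976071, minus strand). It was measured at 784, 647 and 509 TPM in WT sham (647 ± 137, SD, n = 3), at 776, 752 and 778 TPM in WT MI (769 ± 14.3, SD, n = 3) and at 958, 727, 812 and 857 TPM in Foxp3DTR MI (838 ± 96.2, SD, n = 4). WT MI varied least, and its libraries lay within the range of Foxp3DTR MI. The log2 fold change between Foxp3DTR MI and WT MI was -0.13 (SE 0.18, 95% interval -0.51 to 0.26, adjusted p = 0.753, limma), while it was 0.12 without scaling and 0.04 with quantile normalization. Between WT MI and WT sham it was 0.45 (SE 0.19, 95% interval 0.04 to 0.87, unadjusted p = 0.0358 and adjusted p = 0.96 in limma). The scaled values of these groups did not overlap, as for 3.18% of all genes in this direction, while the deposited values did, since WT sham replicate 1 exceeded all WT MI libraries. Without WT sham replicate 3, the lowest, this difference was 0.27. Foxp3DTR MI differed from WT sham by 0.33 (adjusted p = 0.348).

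Fcgr2b and Fcgr3 arose from a common ancestor and are near copies over part of their extracellular domains, so that some short reads cannot be assigned to 1 of them. Of the windows of 50 bases, the read length, in their RefSeq transcripts (for Fcgr2b the shorter of the 2), 166 are identical in both, which is 11.75% of those of Fcgr2b and 12.79% of those of Fcgr3. They lie in a coding stretch of 316 bases of exons 3 and 4 that differs at 3 positions. The longest identical run, of 129 bases, is shown in capitals as spliced RNA with 20 bases on each side, since it marks where the levels of the inhibitory and an activating receptor may mix. The run lies at chr1:170966674-170968081 in Fcgr2b and at chr1:171054167-171057792 in Fcgr3, both on the minus strand and across 1 intron.
Fcgr2b: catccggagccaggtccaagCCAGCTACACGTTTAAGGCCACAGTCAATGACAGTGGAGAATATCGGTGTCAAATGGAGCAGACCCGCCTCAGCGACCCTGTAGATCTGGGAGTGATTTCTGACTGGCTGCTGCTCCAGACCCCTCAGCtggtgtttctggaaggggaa
Fcgr3: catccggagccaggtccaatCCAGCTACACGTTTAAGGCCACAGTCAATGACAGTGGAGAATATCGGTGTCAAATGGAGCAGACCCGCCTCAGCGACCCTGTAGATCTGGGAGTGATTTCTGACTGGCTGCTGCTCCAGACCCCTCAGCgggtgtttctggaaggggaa
The sources used here do not say how such reads were assigned. The longer Fcgr2b transcript shares 436 of its 3495 windows with other genes, 145 of them, Fcgr3 included, and 166 of these windows with Fcgr3. Fcgr1, Fcgr4 and Fcer1g share 0 such windows with any other gene.

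The make-up of the receptor transcripts was then compared within each library. As deposited, without scaling, the 4 receptors summed to 1611 ± 231 TPM in WT sham (SD, n = 3), 1797 ± 28.4 TPM in WT MI (SD, n = 3) and 2051 ± 182 TPM in Foxp3DTR MI (SD, n = 4). On this scale the median gene moved by 0.22 (log2) between the MI groups, whereas shares within a library need no scaling. Fcgr3 made up 48.9%, 45.5% and 42.3% of that sum on average in WT sham, WT MI and Foxp3DTR MI, and Fcgr2b 39.96%, 42.8% and 40.9%. Fcgr1 made up 7.69%, 7.25% and 7.82%. The share of Fcgr4 was 4.31%, 0.434% and 5.51% in the WT sham libraries, 4.11%, 5.34% and 3.96% in the WT MI libraries and 8.33%, 8.31%, 11.2% and 8.35% in the Foxp3DTR MI libraries. It was thus higher in every Foxp3DTR MI library than in any of the WT libraries, as the plot of the receptor shares shows.

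**Figure D4:**
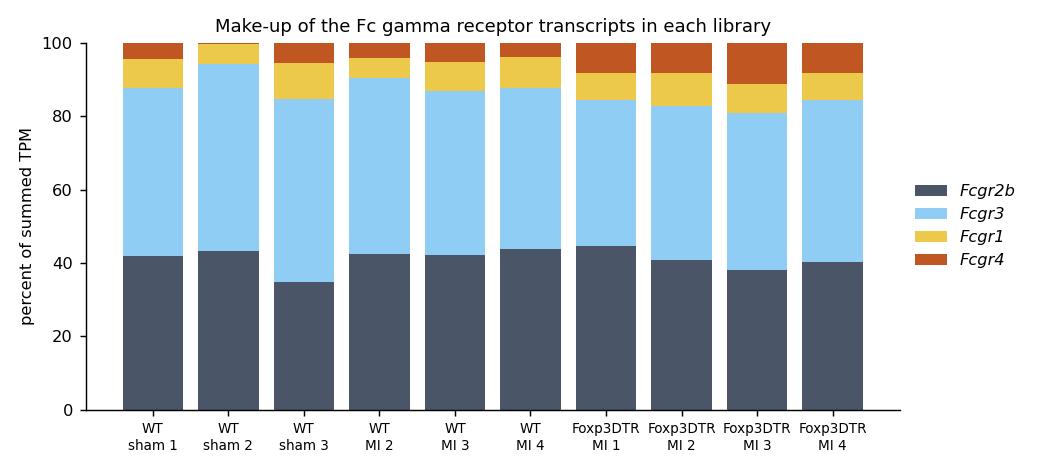
Share of each receptor gene in the summed TPM of Fcgr1, Fcgr2b, Fcgr3 and Fcgr4 (y axis, percent) in the 10 libraries (x axis, 1 bar each). Fcgr2b and Fcgr3 take most of each bar, and the Fcgr4 part is 8.31% to 11.2% in Foxp3DTR MI and 0.434% to 5.51% in the WT libraries.

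Set against the inhibitory receptor, Fcgr4 stood at a log2 ratio to Fcgr2b of -3.27 ± 0.26 in WT MI (SD, n = 3) and -2.19 ± 0.29 in Foxp3DTR MI (SD, n = 4), with no overlap. The log2 ratio of Fcgr4 to Fcgr1 was -0.68 ± 0.37 in WT MI and 0.20 ± 0.24 in Foxp3DTR MI, again with no overlap. All 3 activating receptors together stood at 1.53 ± 0.31 times Fcgr2b in WT sham (SD, n = 3), 1.34 ± 0.049 times in WT MI and 1.46 ± 0.16 times in Foxp3DTR MI. Here the groups overlapped, and the mean was highest in WT sham. TPM of Fcer1g per TPM of its partners Fcgr1, Fcgr3 and Fcgr4 was 3.38, 3.24 and 3.95 in WT MI, 2.38, 2.54, 2.45 and 2.66 in Foxp3DTR MI and 3.04, 5.01 and 2.62 in WT sham. The Foxp3DTR MI libraries were all below the WT MI libraries, and WT sham replicate 3 lay among them. These ratios are descriptions of the same values as above and were not tested on their own. The share and ratios of Fcgr4 repeat its own separation of the MI groups, which 9.97% of tested genes showed in this direction. How often ratios of other genes separate the groups was not worked out.

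Likeness of the members across the 10 libraries is given as Pearson's r of the scaled log2 values without a test, since the points share library, scaling and group. Fcgr1 and Fcgr4 had r = 0.82, which was 0.33 without WT sham replicate 2 and so rested on that library. Fcgr3 and Fcgr2b had r = 0.79, and 0.79 without it, and Fcgr3 and Fcer1g had 0.72 (0.87 without it). Fcer1g and Fcgr2b had 0.56 (0.73 without it), so that Fcgr3, Fcgr2b and Fcer1g had positive values with each other. Fcgr3 and Fcgr2b share identical read windows, and the part of these in their value was not tested. The lowest value was -0.45, between Fcgr4 and Fcer1g, and it was -0.22 without WT sham replicate 2.

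Of 10027 other genes with a median of at least 5 TPM, those most like Fcgr4 were Chmp1a, a subunit of the ESCRT-III membrane machinery (r = 0.97, 0.78 without WT sham replicate 2), Tapbp (0.96, 0.91) and Ly6i (0.96, 0.90). Tapbp, the tapasin chaperone of MHC class I, was at 216 to 251 TPM in WT MI and 336 to 443 TPM in Foxp3DTR MI. In WT sham replicate 2 it was at 119.6 TPM, against 263 and 264 TPM in the other sham libraries. The 3 genes most like Fcgr1 were Ogfr (0.96, 0.90), the tyrosine phosphatase gene Ptpn1 (0.95, 0.91) and Mir8094 (0.94, 0.85). For Fcgr3 they were Ncstn, a subunit of gamma-secretase (0.96), Ptpn18 (0.93) and Plbd2 (0.92), for Fcer1g the ribosomal protein gene Rpl10 (0.96), Gga1 (0.95) and Pias1 (0.93), and for Fcgr2b Vta1 (0.90), Ms4a6d (0.89) and Pitpna (0.87), all over 10 libraries.

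Genes that work with the receptors were taken from 7 lists, described for Foxp3DTR MI against WT MI. The median over all tested genes was 0.00 (log2). Of 11 tested genes of IFN-γ signalling, 7 estimates were above 0 and 4 below, with a list median of 0.40. In this list 3 genes passed the test and all 3 rose. The receptor genes Ifngr1 (log2 -0.435, adjusted p = 0.196, limma) and Ifngr2 (-0.301, adjusted p = 0.213) were among the 4 below 0. Without scaling 4 passed and the list median was 0.64, where the median gene was at 0.22. Of all genes 0.688% were called higher and 0.433% lower. Jak2, the kinase bound to the IFN-γ receptor, was at 74.8 ± 4.29 TPM in WT MI (SD, n = 3) and 148 ± 17.8 TPM in Foxp3DTR MI (SD, n = 4), which is a difference of 0.72 on the log2 scale (SE 0.083, adjusted p = 0.0151, limma). Socs1, the feedback inhibitor of Jak2, was at 5.38 ± 0.99 and 49.7 ± 13.1 TPM (log2 2.74, SE 0.37, adjusted p = 0.0153). Both calls were lost without certain single libraries: that of Jak2 without WT MI replicate 2 (adjusted p = 0.0646) or Foxp3DTR MI replicate 3 (0.0591) and that of Socs1 without WT MI replicate 2 (0.0646) or 3 (0.0528) or Foxp3DTR MI replicate 2 (0.0503) or 3 (0.0667). Without WT MI replicate 2, 0 of all tested genes were called, so that the loss there is not particular to Jak2 and Socs1. The sums of 9 T cell markers (13.5 to 17.4 TPM in WT MI, 46.4 to 164 TPM in Foxp3DTR MI) and of 9 NK cell markers (30.8 to 81.0 and 101 to 195 TPM) moved with these genes between the MI groups. WT sham replicate 3 had sums of 188 TPM (T cell markers) and 217.5 TPM (NK cell markers), above every Foxp3DTR MI library. In WT sham, Jak2 lay at 83.9 to 101 TPM and Socs1 at 6.79 to 26.9 TPM, below all Foxp3DTR MI libraries (from 122.5 and 34.7 TPM). On scaled values WT sham replicate 3 was the highest sham library for Jak2. Without it the log2 fold change of Jak2 between Foxp3DTR MI and WT sham was 0.703, against 0.599 and 0.627 without replicates 1 and 2. Beyond these values the part of T and NK cell RNA was not tested. In bulk RNA, more cells of a type and more RNA per cell cannot be told apart. Jak2 was also called in Foxp3DTR MI against WT sham (log2 0.64, SE 0.083, adjusted p = 0.0209), a call lost without WT sham replicate 1 or 2 or Foxp3DTR MI replicate 1, 2 or 3 (adjusted p from 0.0714 to 0.0795).

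Among ITAM adaptors and the receptors that pair with them, 1 of 16 tested genes passed and fell, 13 of 16 estimates were below 0 and the median was -0.36, or -0.13 without scaling, where 0 were called. The gene was Cd300ld, an activating CD300 receptor that signals through ITAM chains. It was at 103 ± 2.98 TPM in WT MI (SD, n = 3) and 68.1 ± 6.08 TPM in Foxp3DTR MI (SD, n = 4), which is a difference of -0.84 on the log2 scale (SE 0.16, adjusted p = 0.0428, limma). Its call was lost without any 1 of the 7 libraries compared (adjusted p from 0.0893 to 0.131), without scaling (0.0596), without the filter on low values (0.0789) and without a variance trend (0.0719). Of these libraries, leaving out WT MI replicate 2 left 0 of all tested genes called.

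In the other lists 0 genes were called, while without scaling 1 was called among the genes of activating signalling (Pik3r1, log2 0.47, adjusted p = 0.0409, limma) and 1 among the other receptors for immunoglobulin (Trim21, log2 0.86, adjusted p = 0.0289). Of 22 genes of activating signalling below the receptors 7 estimates were above 0 and 15 below, with a median of -0.08 that was 0.16 without scaling. The Src kinase gene Fgr was among the genes of lowest p (log2 -0.36, adjusted p = 0.184, limma). The 10 inhibitory phosphatases and adaptors had a median of -0.16, or 0.08 without scaling, with Ptpn22 (-0.49, adjusted p = 0.0918) and Dok3 (-0.55, adjusted p = 0.165) first in limma. Of 13 ITIM receptors of myeloid cells, median -0.29 (-0.05 without scaling), Pecam1 was at 8.25 ± 1.09 TPM in WT MI and 21.1 ± 4.27 TPM in Foxp3DTR MI (log2 1.02, adjusted p = 0.182, limma) and Cd300a had a log2 fold change of -0.41 (adjusted p = 0.182).

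Receptors for immunoglobulin outside the family, 8 tested of 13, had a median of 0.27. All tested ones but Trim21 and Fcgrt had group means of at most 3.98 TPM, so that low genes weigh on this median. With FPKM 3 of them were tested and the median was -0.09. Trim21, the cytosolic receptor of antibody-coated particles, was at 31.4 ± 5.92 TPM in WT MI (SD, n = 3) and 57.3 ± 7.91 TPM in Foxp3DTR MI (SD, n = 4), differing by 0.62 on the log2 scale (SE 0.16, adjusted p = 0.0812, limma). Fcgrt, the neonatal receptor that recycles IgG, was at 34.8 ± 4.99 TPM in WT sham, 22.5 ± 4.29 TPM in WT MI and 18.6 ± 4.97 TPM in Foxp3DTR MI, and between the last 2 groups the log2 fold change was -0.51 (SE 0.20, adjusted p = 0.22). Of the immunoglobulin chains only Jchain was analysed here, at 3.70 to 12.5 TPM in WT MI, 30.5 to 106 TPM in Foxp3DTR MI and 6.28 to 213.7 TPM in WT sham (log2 2.51 between the MI groups, adjusted p = 0.214). In WT MI against WT sham 0 genes were called in any list, as for all genes.

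Since Fcgr4 is known on Ly6Clow monocytes and neutrophils too, their marker genes were summed in each library, as the plot of Fcgr4 against the marker sums shows. The 10 markers of Ly6Clow monocytes summed to 726 to 1432 TPM in WT sham, 858 to 1310 TPM in WT MI and 508 to 656 TPM in Foxp3DTR MI. The Foxp3DTR MI libraries had the lowest sums, and 3 of the 10 (Cx3cr1, Ace and Adgre4) were called lower in Foxp3DTR MI than in WT MI, against 0.433% of all genes. Of the 10 estimates 8 were below 0 and 2 above. The 12 neutrophil markers summed to 619 to 1594 TPM in WT sham, 366 to 601 TPM in WT MI and 1436 to 2721 TPM in Foxp3DTR MI. Of these, 3 of the 12 (S100a9, Ngp and Camp) were called higher in Foxp3DTR MI than in WT MI, against 0.688% of all genes. Of the 12 estimates 11 were above 0 and 1 below. All 6 calls were lost without WT MI replicate 2 (adjusted p from 0.0646 to 0.0893, limma), WT MI replicate 3 (0.0503 to 0.105) or Foxp3DTR MI replicate 3 (0.0591 to 0.0948). Those of Ace (0.0693 to 0.121) and Adgre4 (0.0782 to 0.104) were lost without any single library of the MI groups. Dropping the filter on low values lost Ace (0.0794), Adgre4 (0.077), S100a9 (0.0548) and Ngp (0.064). Dropping the variance trend lost Ace (0.0655) and Adgre4 (0.0614). Without WT MI replicate 2, 0 of all tested genes were called between these groups, so that this loss is not particular to the markers. No defining marker of either list was at 0 in all libraries. Among the neutrophil markers, Mmp8 lay at 103 to 288 TPM and Csf3r at 120 to 280 TPM over the 10 libraries, while Camp, Ltf and Retnlg were at 0 in 2, 2 and 3 libraries. All of these libraries were WT MI libraries. In every WT sham and Foxp3DTR MI library the 3 genes were above 0. Their means were 49.4, 16.4 and 13.3 TPM in Foxp3DTR MI and 25.1, 9.35 and 15.4 TPM in WT sham. In WT MI replicate 3, Mmp8 (103 TPM) and Csf3r (208 TPM) were the largest terms of the sum of 366 TPM. S100a8 (525 to 1082 TPM) was the largest term in each Foxp3DTR MI library. Csf3r lay at 122 to 208 TPM in WT MI and at 120 to 177 TPM in Foxp3DTR MI. The neutrophil sum thus differed in its make-up between libraries, and how far it measures neutrophil RNA was not tested. WT sham replicate 3, with a neutrophil sum of 1594 TPM, had Fcgr4 at 80.8 TPM, while Foxp3DTR MI replicate 1, with 1436 TPM, had it at 179 TPM. Within Foxp3DTR MI the library with the most Fcgr4, replicate 3, had a neutrophil sum of 1794 TPM and the library with the highest sum, replicate 4, had Fcgr4 at 178 TPM. Beyond these values, the part of neutrophil RNA in the level of Fcgr4 was not tested. WT sham replicate 2, with the lowest Fcgr4, had sums close to those of replicate 1 for Ly6Clow monocytes (1409.9 and 1432 TPM) and for neutrophils (619 and 623 TPM).

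**Figure D5:**
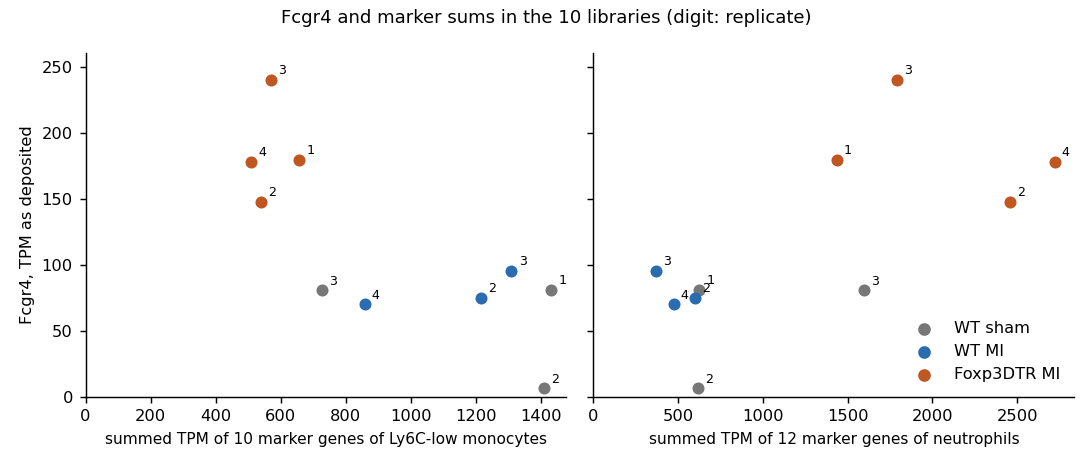
TPM of Fcgr4 (y axis) against the summed TPM of 10 marker genes of Ly6Clow monocytes (left, x axis) and of 12 neutrophil marker genes (right, x axis), with 1 point per library, its replicate number and a colour per group. The 4 Foxp3DTR MI libraries combine the lowest Ly6Clow sums (508 to 656 TPM) with the highest Fcgr4, and WT sham replicate 3 has a neutrophil sum in their range with Fcgr4 at 80.8 TPM.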

How the data were processed

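RNA of sorted splenic monocytes was measured in 10 libraries, grouped by their labels. Per the labels' processing notes, the authors used CASAVA 1.4, cutadapt 1.1, STAR 2.5 and StringTie 1.3.0 with the build mm10. The authors deposited 1 table per library with coverage (a signal, the mean depth over exons), FPKM and TPM per gene, and no counts, so that the study's DESeq2 test was not used. Depth was worked out from coverage divided by FPKM and reads of 50 bases. With no counts, no counting interval is given.

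TPM was summed per symbol and scaled with median-of-ratios factors. Genes had to reach 1 TPM in no fewer than 3 libraries. To log2(TPM + 1) of all 10 libraries, group means with a variance trend were fitted in limma 3.58.1 (R 4.3.3). Fold changes of low genes are understated on this scale. Tests were two-sided, Benjamini-Hochberg adjusted over all genes tested, and the script was tested on simulated data. The replicate number was not used as a block, since the study used none.

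Members and lists were chosen with earlier results of these data known. Genes named are the members, list genes called in any comparison (at most 4 a list) or otherwise the 2 of lowest p, the 3 genes most like each member, and of the genes within 100 kb those called or otherwise the 2 of lowest p. Certain genes that this rule names are not reported here. As alternatives, the scaling was dropped or replaced by quantile normalization, FPKM was used, the pseudocount was set to 0.1 or 5 and the filter was dropped or raised to 5 TPM. The fit was also run with only the pair of groups at hand, with a constant prior variance, in its robust form, with array weights, with the replicate block and without each library.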

Additional observations from a re-analysis of the deposited data

How the results depend on the processing

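Across 22 alternative settings, 321 of 330 fold changes of the members kept their direction and their side of the threshold. The members called between Foxp3DTR MI and WT MI numbered 1 (Fcgr4) in place of 0 in the fit of only these 2 groups, which called 578 genes in place of 145, and 0 to 1 with a library left out, the 1 being without WT sham replicate 2. Between Foxp3DTR MI and WT sham they numbered 0 to 1 with a library left out, the 1 (Fcgr4) being without WT sham replicate 3, and between WT MI and WT sham 0 throughout. Over all genes, leaving out a library gave 0 (WT MI replicate 2) to 431 calls (WT sham replicate 2) between Foxp3DTR MI and WT MI, 0 to 2 between WT MI and WT sham and 3 (WT sham replicate 1) to 636 (WT sham replicate 3) between Foxp3DTR MI and WT sham. A change of sign was seen in 6 estimates (log2), none of them past the threshold. Between Foxp3DTR MI and WT MI these were Fcgr3 (0.08) and Fcgr2b (0.12) without scaling, Fcgr2b (0.043) with quantile normalization and Fcgr1 without WT MI replicate 2 (-0.12, range with a library left out -0.12 to 0.23). In Foxp3DTR MI against WT sham they were Fcgr3 without Foxp3DTR MI replicate 4 (range -0.022 to 0.18) and Fcer1g without WT sham replicate 2 (range -0.40 to 0.04). The first 2 follow the shift of the median gene, and the cause of the others was not tested.

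With the replicate number as a block, 0 members were called in each comparison, as without it, and 81 genes in place of 145 between Foxp3DTR MI and WT MI. The log2 fold change of Fcgr4 there was 0.78 (adjusted p = 0.561, limma). The calls of Cd300ld (adjusted p = 0.0695) and, against WT sham, of Jak2 (0.0674) were lost with the block. Libraries with the same number showed no common deviation, with r from -0.19 to 0.19 over 8 pairs (median 0.001) and 1 pair over 0.1. Over the 25 pairs with different numbers the median was 0.001 as well, and 3 of 10 libraries correlated best with their own number. With so few libraries this cannot exclude a pairing by number.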

Other observations

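The genes around the members were read as well. Within 100 kb of a member lie 31 other genes, of which 26 were tested, and 0 were called in limma in any of the 3 comparisons (for Foxp3DTR MI against WT MI, 1.12% of all genes were). Their log2 fold changes between Foxp3DTR MI and WT MI ran from -0.70 to 0.95, with a median of 0.16. The lowest p was that of Dusp12, a phosphatase gene 75019 bases from Fcgr2b (log2 -0.61, adjusted p = 0.124, limma), followed by Dedd, 94796 bases from Fcer1g (log2 0.24, adjusted p = 0.293). Fcgr1 lies beside a cluster of replication-dependent histone genes. The estimate of 0.95 was that of the histone gene Hist2h2bb, named after its values were seen, at 12717 bases from Fcgr1, with 318 TPM on average in WT MI and 646 TPM in Foxp3DTR MI (adjusted p = 0.353). Some of these histone genes are near copies of each other, so that their single values are uncertain.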
